A study of Mus musculus with 9 samples.

Results

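The HMGA and HMGB chromatin proteins were followed here through 6 rows of a table of read counts from ST2 cells: Hmga1, Hmga1b, Hmga2, Hmgb1, Hmgb2 and Hmgb3. The members were chosen by gene symbol, and they were proposed with results of these data already in view, so their own values are given as a description, with fold changes and errors but without p-values. They are 6 of the 55453 rows of the table, and all 6 are among the 13568 genes with enough counts to be tested. ST2 is a wild-type stromal cell line from the bone marrow of mice, started in a Whitlock-Witte type culture, and it is labelled as a mesenchymal stromal cell. The question of the series was what happens to such cells when they take up dying neutrophils, a process called efferocytosis. The neutrophils (PMN) came from human blood, were frozen for at least 18 h to bring them to the end of their life, were stained with eFluor670 dye at 20 µM and were given at 10 neutrophils per ST2 cell. The 9 libraries fall into 3 groups of 3: ST2 cells given no neutrophils and labelled 24 h (unfed), ST2 cells fed for 3 h and sorted as PMN positive (fed 3 h), and ST2 cells fed for 24 h and sorted as PMN positive (fed 24 h).

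Positive cells were those holding at least the dye of a whole neutrophil, so both fed groups describe the part of the culture with high uptake. Feeding and sorting by dye therefore differ together between fed and unfed cells and cannot be told apart. No unfed libraries labelled 3 h were analysed here, so time and feeding cannot be told apart in the comparison of fed 3 h with unfed cells. The replicates are numbered without a statement that they were separate cultures, so errors and p-values measure only the spread between these libraries. All cells come from a single line, and in such bulk libraries fewer cells that express a gene and less RNA per cell cannot be told apart.

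HMGA proteins are small and flexible, and they hold the minor groove of AT-rich DNA with short motifs called AT hooks, bending it so that transcription factors can assemble. Hmga1 and Hmga2 are abundant in embryonic and dividing cells, fall as tissues mature and return in many tumours, and Hmga2 has roles in mesenchymal and stem cells. HMGB proteins carry a pair of HMG boxes that bend DNA without much regard to sequence and end in an acidic tail. They help assemble nucleoprotein complexes in the nucleus, and HMGB1 also acts as an alarm signal when dying cells release it or inflamed cells secrete it. Hmgb2 is tied to dividing and germ cells and to mesenchymal progenitors, and Hmgb3 to embryonic and early blood-forming cells.

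A short sequence that the HMGA messages share, and the HMGB messages lack, is the site for let-7, a family of small RNAs that hold HMGA2 down in mature tissue and that LIN28 proteins block. The mature sequences below, from RefSeq with build GRCm38.p6, have the seed (bases 2 to 8) in capitals, and 9 mature mouse names carry that same seed.
mmu-let-7a-5p: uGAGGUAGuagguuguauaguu
mmu-let-7b-5p: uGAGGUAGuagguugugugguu

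The reverse complement of the seed, CTACCTC, was searched on the sense strand of the 3′ untranslated regions of the GENCODE M21 annotation of GRCm38. Hmga2 held 4 matches, Hmga1 held 1 and Hmga1b held 1, whereas Hmgb1, Hmgb2 and Hmgb3 held 0. Each match follows with its flanking bases, and CTACCTC is in capitals.
Hmga2 site at chr10:120364224-120364246, minus strand: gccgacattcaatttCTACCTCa
Hmga2 site at chr10:120362987-120363009, minus strand: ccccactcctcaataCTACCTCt
Hmga2 site at chr10:120362549-120362571, minus strand: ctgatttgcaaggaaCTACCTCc
Hmga2 site at chr10:120361691-120361713, minus strand: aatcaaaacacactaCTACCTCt
Hmga1 site at chr17:27563277-27563299, plus strand: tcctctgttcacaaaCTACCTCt
Hmga1b site at chr11:120763998-120764020, plus strand: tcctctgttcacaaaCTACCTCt

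The Hmga1 and Hmga1b matches are the same 23 bases at the same distance from the stop codon. Of the 21020 genes with a 3′ untranslated region, 9.87% held at least 1 match and 12 genes held at least 4. Among the 1241 regions within 10% of the length of that of Hmga2, 15.3% held at least 1 match and 1 held more than Hmga2, with 7. For the lengths of Hmga1 and Hmga1b the shares with at least 1 match were 8.83% and 9.16%. For Hmgb1, Hmgb2 and Hmgb3 they were 14.0%, 12.7% and 7.11%, so a count of 0 is the usual result at those lengths. A match is a description of the letters, and no let-7 RNA was measured.

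The promoters of the members also differ in their letters. CCAAT on either strand, the word bound by the factor NF-Y in many cell cycle promoters, occurred in 37.4% of 32851 RefSeq promoters of 300 bases, which run from 250 bases before a start to 50 after it. Hmgb2 held 4, Hmgb3 held 3, Hmgb1 held 3 at one start and 0 at the other, Hmga1b held 1, and Hmga2 and both starts of Hmga1 held 0. The Hmgb2, Hmgb3 and Hmga2 promoters of GRCm38.p6 are printed in the direction of transcription to show windows with many matches and a window with 0, with CCAAT in capitals. Hmgb3 and Hmga2 were both highest in fed 3 h cells, by log2 fold changes of 0.33 and 1.75 against unfed cells. Whether the number of matches bears on the levels of the members was not tested.
Hmgb2 promoter at chr8:57511593-57511892, plus strand: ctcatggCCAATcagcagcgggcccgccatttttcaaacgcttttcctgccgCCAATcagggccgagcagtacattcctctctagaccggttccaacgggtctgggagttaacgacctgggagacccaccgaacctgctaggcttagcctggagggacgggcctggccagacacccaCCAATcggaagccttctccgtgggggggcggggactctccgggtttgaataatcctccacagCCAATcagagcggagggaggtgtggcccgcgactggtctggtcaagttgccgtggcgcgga
Hmgb3 promoter at chrX:71555667-71555966, plus strand: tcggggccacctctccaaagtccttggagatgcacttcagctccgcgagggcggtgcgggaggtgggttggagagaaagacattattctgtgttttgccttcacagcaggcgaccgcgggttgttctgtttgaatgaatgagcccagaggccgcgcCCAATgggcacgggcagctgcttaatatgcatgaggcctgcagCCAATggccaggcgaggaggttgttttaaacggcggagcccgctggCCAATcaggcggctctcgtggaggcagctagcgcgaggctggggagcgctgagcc
Hmga2 promoter at chr10:120476420-120476719, minus strand: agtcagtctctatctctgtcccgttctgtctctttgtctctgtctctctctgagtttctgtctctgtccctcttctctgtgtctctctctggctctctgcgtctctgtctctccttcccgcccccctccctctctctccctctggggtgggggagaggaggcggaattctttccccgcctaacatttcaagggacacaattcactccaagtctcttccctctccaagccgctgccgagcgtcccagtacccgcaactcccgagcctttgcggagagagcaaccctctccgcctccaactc

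GGGCGG on either strand, the core of the GC box bound by SP1, occurred in 35.7% of the promoters. Hmga1 held 4 at each start, Hmgb1 held 4 at the start without CCAAT and 0 at the other, Hmga2, Hmgb2 and Hmgb3 held 1 each, and Hmga1b held 0. TGANTCA, the AP-1 word, occurred in 7.81% of promoters, once in that of Hmga1b and not in the windows of the other members. No binding was measured, so these counts describe only the windows.

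The counts came from libraries of similar size. Total counts ran from 44442664 to 55971275. Replicates differed by more than counting error, with chi-square values over all genes of 5.46 to 16.1 per degree of freedom. Levels are given as CPM, the counts scaled to a common library total after correction by TMM factors, which ran from 0.964 to 1.02. All 11 stromal marker genes were in the table and 0 of them were at 0 in every library. Their summed level was 30097 to 32326 CPM in unfed cells, 27072 to 27871 in fed 3 h cells and 33357 to 35067 in fed 24 h cells, although Thy1 had a single count over all libraries. Of 15 mouse neutrophil markers, S100a9 and Ngp were at 0 everywhere and 12 had at most 10 counts in any library. Their sum was 3.02 to 3.88, 1.03 to 1.72 and 4.29 to 5.32 CPM in unfed, fed 3 h and fed 24 h cells. Most of it was Camp, with means of 2.54, 0.911 and 3.56 CPM, and Mmp9, with means of 0.730, 0.293 and 0.900 CPM. Of 10 macrophage markers, Adgre1 and Tyrobp were at 0 everywhere, and the sum was 23.3 to 25.4, 27.9 to 29.0 and 24.8 to 28.2 CPM. Most of it was Cd14, with means of 18.4, 23.4 and 18.3 CPM, and Lyz2, with means of 4.34, 2.74 and 6.73 CPM. These moved in opposite directions in fed 3 h against unfed cells, by log2 fold changes of 0.35 and -0.66. Of 6 endothelial markers Kdr was at 0 everywhere, and the sum was at most 0.658 CPM. The part of these shifts in the values below was not tested.

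Hmga2, the member with the widest swing, was high in fed 3 h cells and lowest in fed 24 h cells. Its level was 23.4, 28.4 and 35.0 CPM in the unfed libraries, 117, 88.0 and 86.1 CPM in the fed 3 h libraries and 17.5, 19.8 and 21.4 CPM in the fed 24 h libraries. The 3 groups did not overlap: each fed 3 h library lay above each unfed library, and each fed 24 h library lay below. The means were 28.9 ± 5.83, 97.0 ± 17.2 and 19.6 ± 1.94 CPM (SD, n = 3 each). Fed 3 h cells held 3.36-fold the unfed level, a log2 fold change of 1.75 with a standard error (SE) of 0.128. Fed 24 h cells were below unfed cells by a log2 fold change of -0.56 (SE 0.134) and below fed 3 h cells by -2.31 (SE 0.131), which is 4.95-fold. The size of the difference at 3 h exceeded that of 98.4% of the tested genes, and that between the fed groups exceeded 98.6%.

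Hmga2 is read from the minus strand of chromosome 10, from 120361275 to 120476469 in GRCm38. Its exons cover 6772 bases, and its 3′ untranslated region, with the 4 let-7 sites printed above, is the longest of the members at 3014 bases. Only 2.73% of its 50-base words recur in other annotated transcripts, the lowest share of the 6 members. An antisense transcript, 1700006J14Rik, overlaps 2.07% of its exon bases, and the strand setting of the counting is not given in the sources used here.

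Hmga1 moved in the same directions over a narrower range. Its level was 22.8, 39.2 and 29.6 CPM in unfed cells, 62.0, 57.1 and 60.9 CPM in fed 3 h cells and 19.9, 21.9 and 22.2 CPM in fed 24 h cells. Every fed 3 h library lay above every unfed library, and every fed 24 h library lay below, although unfed replicate 1 lay close to the highest fed 24 h library. The means were 30.6 ± 8.24, 60.0 ± 2.56 and 21.3 ± 1.28 CPM (SD, n = 3 each). The log2 fold change was 0.97 (SE 0.124) for fed 3 h against unfed cells, -0.52 (SE 0.129) for fed 24 h against unfed cells and -1.49 (SE 0.126) for fed 24 h against fed 3 h cells. Unfed replicate 2 carried much of the difference at 24 h: without it the log2 fold change was -0.30.

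Hmga1b gave nearly the same profile. It stood at 25.6, 33.6 and 36.6 CPM in unfed cells, at 69.1, 62.4 and 62.8 CPM in fed 3 h cells and at 19.4, 20.1 and 20.4 CPM in fed 24 h cells. The groups did not overlap, and the fed 24 h libraries lay closest to each other. The means were 31.9 ± 5.67, 64.8 ± 3.78 and 20.0 ± 0.514 CPM (SD, n = 3 each). The log2 fold change was 1.02 (SE 0.0907) at 3 h and -0.68 (SE 0.0952) at 24 h, both against unfed cells, and -1.70 (SE 0.0934) between the fed groups.

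Hmga1 and Hmga1b are not independent readings. Hmga1 is a gene of up to 6 exons on chromosome 17 from 27556497 to 27563674, and Hmga1b is a single exon on chromosome 11 from 120762794 to 120764419, both on the plus strand of GRCm38. The coding sequence of Hmga1b, 324 bases or 107 codons before the stop, is identical to that of 5 Hmga1 transcripts, with 0 mismatches. The loci share 1403 words of 50 bases. Exons of AI413582 and Gm49774 also cover 4.80% and 1.04% of the exon bases of Hmga1. In all, 55.0% of the 50-base words of Hmga1 and 89.0% of those of Hmga1b recur in other annotated transcripts, and with 100-base words the shares are 40.1% and 78.8%. How the counting dealt with reads that match both places is not given in the sources used here, so the split of reads between these rows is uncertain.

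The sum of both rows does not depend on how shared reads were split between them. Reads that match both places may still have been dropped from it or counted in both rows. The sum was 62.5 ± 12.6 CPM in unfed cells, 125 ± 5.89 in fed 3 h cells and 41.3 ± 1.79 in fed 24 h cells (SD, n = 3 each). Counted as a single gene, the pair had a log2 fold change of 1.00 (SE 0.0994) at 3 h and -0.60 (SE 0.102) at 24 h against unfed cells. Hmga1b took 51.4 ± 4.74% of the sum in unfed cells, 51.9 ± 1.01% in fed 3 h cells and 48.4 ± 0.899% in fed 24 h cells. The range of this share in unfed cells, 46.1 to 55.2%, covers that of both fed groups. The fed groups did not overlap with each other, at 50.8 to 52.7% in fed 3 h cells and 47.9 to 49.4% in fed 24 h cells.

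**Figure D1:**
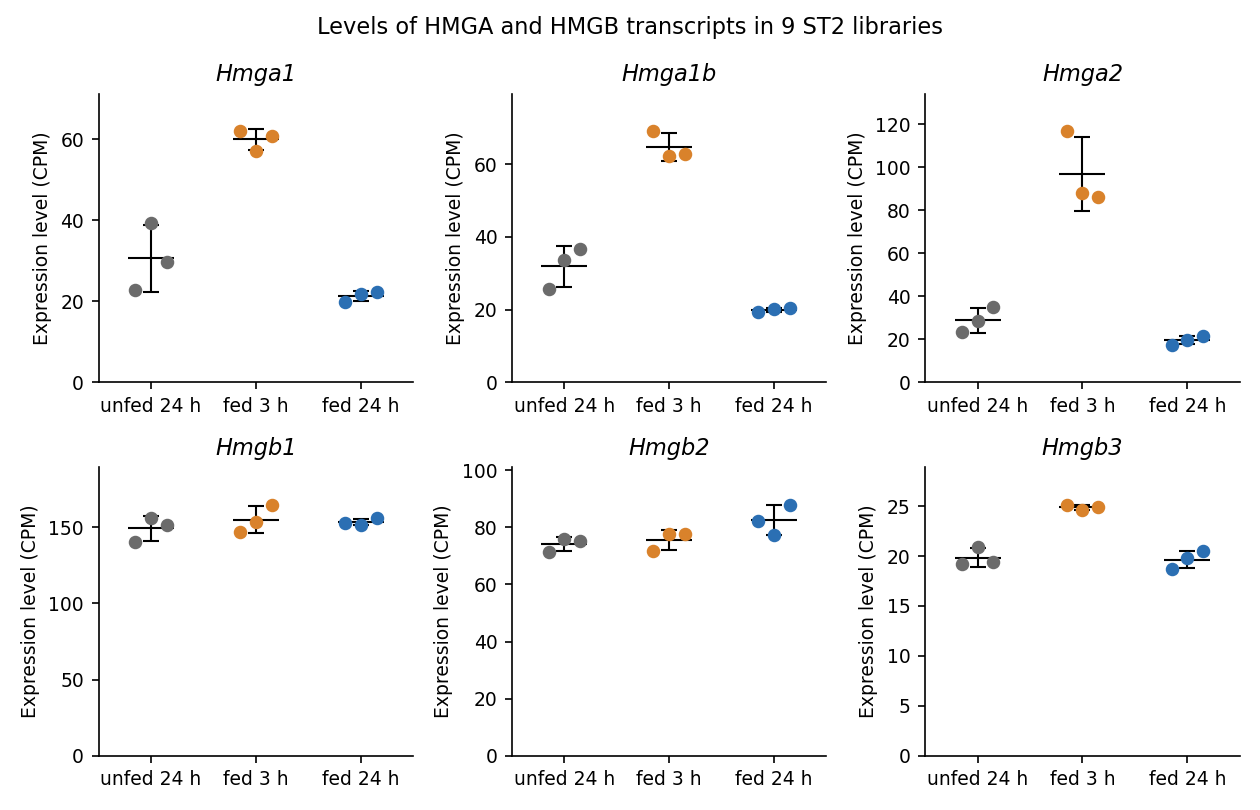
CPM of each of the 6 members in each of the 9 libraries, with 1 panel per gene and its own vertical axis; points are libraries and bars the group means with their SD. The fed 3 h libraries stand highest in the Hmga1, Hmga1b, Hmga2 and Hmgb3 panels, while in the Hmgb1 and Hmgb2 panels the fed 3 h and unfed libraries overlap.

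Hmgb1, the member with the most counts, stayed within a narrow band. Its level was 140, 156 and 151 CPM in unfed cells, 147, 153 and 165 CPM in fed 3 h cells and 153, 151 and 156 CPM in fed 24 h cells. Each pair of groups overlapped, with means of 149 ± 7.97, 155 ± 9.06 and 153 ± 2.25 CPM (SD, n = 3 each). The log2 fold change was 0.06 (SE 0.050) at 3 h and 0.04 (SE 0.0499) at 24 h against unfed cells, and -0.02 (SE 0.0498) between the fed groups. These counts describe messages, and HMGB1 protein, whether made by ST2 cells or carried in by neutrophils, was not measured. Whether reads from human RNA were kept out of the counts is not given in the sources used here. Exons of Uspl1 and Mm2pr cover 0.836% and 0.737% of those of Hmgb1.

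Hmgb2 differed little between the groups. It stood at 71.5, 75.9 and 75.1 CPM in unfed cells, 71.7, 77.8 and 77.7 CPM in fed 3 h cells and 82.2, 77.4 and 88.0 CPM in fed 24 h cells. Fed 24 h libraries all lay above the unfed ones, the lowest by a small margin, and overlapped with fed 3 h libraries. The means were 74.1 ± 2.37, 75.7 ± 3.49 and 82.5 ± 5.31 CPM (SD, n = 3 each), and the log2 fold change at 24 h was 0.15 (SE 0.0526) against unfed cells. It was 0.03 (SE 0.0529) for fed 3 h against unfed cells and 0.12 (SE 0.0526) between the fed groups.

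Hmgb3 was slightly higher in fed 3 h cells, with close replicates. Its level was 19.3, 20.9 and 19.4 CPM in unfed cells, 25.2, 24.6 and 24.9 CPM in fed 3 h cells and 18.7, 19.8 and 20.5 CPM in fed 24 h cells. The fed 3 h libraries lay above all others, and the unfed and fed 24 h libraries overlapped. The means were 19.8 ± 0.920, 24.9 ± 0.253 and 19.6 ± 0.893 CPM (SD, n = 3 each). The log2 fold change was 0.33 (SE 0.0551) at 3 h, a 1.25-fold difference, -0.014 (SE 0.0555) at 24 h against unfed cells, and -0.34 (SE 0.0547) between the fed groups.

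The HMGB rows also share sequence with processed copies, though those copies took few counts. Of the 50-base words of Hmgb1, Hmgb2 and Hmgb3, 22.7%, 18.7% and 25.0% recur in other annotated transcripts. The largest count in any library was 4 for Gm21596, which shares words with Hmgb1, 20 for Gm4739, which shares words with Hmgb2, and 6 for Gm6104, which shares words with Hmgb3. A further 17 rows carry names derived from HMGA or HMGB genes, and 7 of them were at 0 in every library. Together they held 221 counts over the 9 libraries.

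In the test of all genes 4 members were called higher in fed 3 h than in unfed cells, Hmga1, Hmga1b, Hmga2 and Hmgb3, against 25.1% of all genes, and 0 were called lower, against 25.5%. A gene was called when its adjusted p was under 0.05 (edgeR quasi-likelihood test, Benjamini-Hochberg over 13568 genes), and 50.6% of all genes were called in either direction in this comparison. In fed 24 h against unfed cells 1 member was called higher, Hmgb2, against 14.9% of all genes, and 3 lower, Hmga1, Hmga1b and Hmga2, against 15.9%, with 30.8% called in either direction. Between fed 24 h and fed 3 h cells 0 members were called higher, against 30.8% of all genes, and 4 lower, Hmga1, Hmga1b, Hmga2 and Hmgb3, against 30.2%, with 60.9% in either direction. In each of these comparisons 4 members had groups that did not overlap, as did 58.2%, 43.2% and 65.9% of all genes. Since the members were proposed with these contrasts in view, the counts stand beside those shares and nothing is read from them. The median log2 fold change of the members was 0.65, -0.27 and -0.92 in the same order, and that of all genes -0.0085, -0.0013 and -0.0017. The call of Hmgb2 at 24 h was lost on leaving out any single unfed library, or fed 24 h replicate 1 or 3, at log2 fold changes of 0.11 to 0.17.

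**Figure D2:**
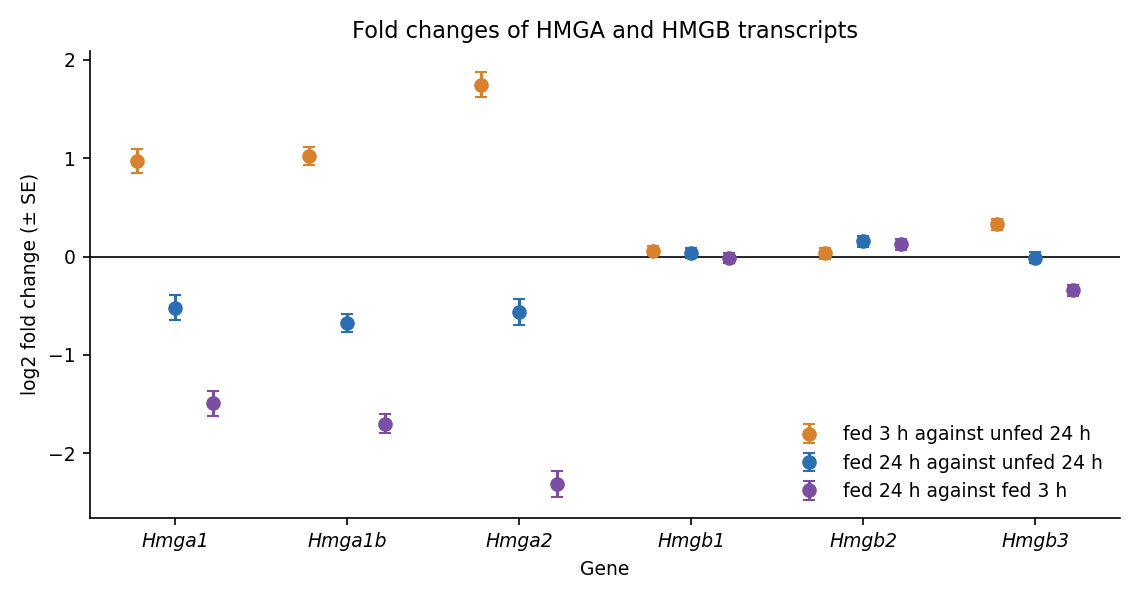
Log2 fold change of each member in the 3 comparisons, with bars of 1 SE on either side; the line at 0 marks no difference. The HMGA members lie above 0 at 3 h and below 0 at 24 h against unfed cells, at 1.75 and -0.56 for Hmga2, while Hmgb1 stays within 0.06 of 0 throughout.

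Levels of different genes can be compared only per length, so CPM were divided by the kilobases covered by each gene's exons. In unfed cells the order was Hmgb1 at 29.7 ± 1.59, Hmgb2 at 24.7 ± 0.789, Hmga1b at 19.6 ± 3.49, Hmga1 at 14.4 ± 3.88, Hmgb3 at 8.88 ± 0.412 and Hmga2 at 4.27 ± 0.861 CPM per kilobase (SD, n = 3 each). Of these neighbours only Hmga1b and Hmga1 overlapped. In fed 3 h cells Hmga1b came first at 39.8 ± 2.32, followed by Hmgb1 at 30.9 ± 1.80, Hmga1 at 28.3 ± 1.21, Hmgb2 at 25.2 ± 1.16, Hmga2 at 14.3 ± 2.54 and Hmgb3 at 11.1 ± 0.113 CPM per kilobase. Hmga2 thus stood above Hmgb3 in fed 3 h cells and below it in the other groups, and the libraries of neighbours in this order did not overlap, although those of Hmgb1 and Hmga1 nearly met. In fed 24 h cells the order was again that of unfed cells, with Hmgb1 at 30.5 ± 0.449, Hmgb2 at 27.5 ± 1.77, Hmga1b at 12.3 ± 0.316, Hmga1 at 10.0 ± 0.604, Hmgb3 at 8.79 ± 0.400 and Hmga2 at 2.89 ± 0.286 CPM per kilobase. Exon length counts all annotated exons. The split between Hmga1 and Hmga1b, and the handling of reads that match both, enter their places.

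Summed by family, HMGA messages made up 91.4 ± 17.0 CPM in unfed cells, 222 ± 22.7 in fed 3 h cells and 60.9 ± 3.70 in fed 24 h cells (SD, n = 3 each). The ranges of 71.8 to 101, 208 to 248 and 56.8 to 64.0 CPM did not overlap. HMGB messages summed to 243 ± 11.0, 256 ± 11.8 and 256 ± 8.01 CPM, with overlapping ranges of 231 to 253, 244 to 267 and 249 to 264. The ratio of HMGA to HMGB counts was 0.374 ± 0.0555 in unfed cells, 0.871 ± 0.127 in fed 3 h cells and 0.238 ± 0.0130 in fed 24 h cells. Within the HMGB family, Hmgb2 stood at 0.497 ± 0.0111, 0.489 ± 0.0179 and 0.538 ± 0.0267 of the Hmgb1 count. These sums and ratios are not divided by exon length. They compare the groups, and do not show which family or gene had more messages. The handling of reads shared by Hmga1 and Hmga1b enters the HMGA sums and the HMGA to HMGB ratio.

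**Figure D3:**
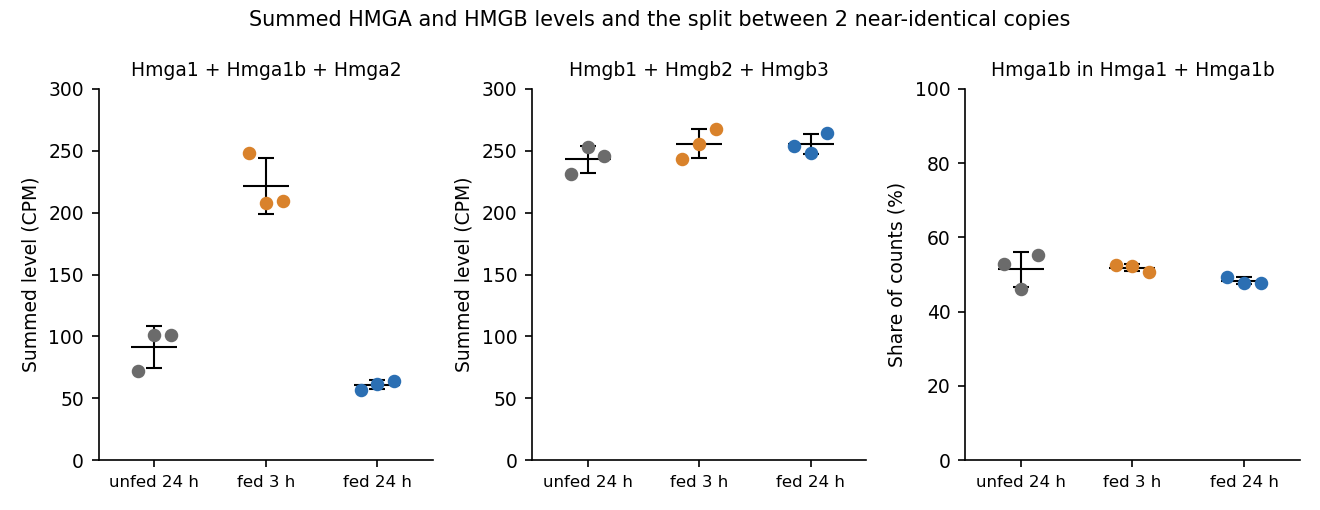
Summed CPM of the 3 HMGA rows (left) and of the 3 HMGB rows (middle), and the percent of the Hmga1 and Hmga1b counts that fell to Hmga1b (right), with a point per library and bars for group means with their SD. The HMGA sum is 208 to 248 CPM in fed 3 h cells, above the other groups, the HMGB sum overlaps between all groups, and the Hmga1b share lies between 46.1 and 55.2% throughout.

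Within the unfed group the HMGA rows varied more than the HMGB rows. Replicate 1 was the lowest unfed library for all 3 of them, by -0.39, -0.30 and -0.29 on the log2 scale from the group mean for Hmga1, Hmga1b and Hmga2. Replicate 2 was the highest for Hmga1 and replicate 3 for Hmga1b and Hmga2, so the unfed libraries did not keep a common order across these rows. Replicate 1 was also the lowest unfed library for Hmgb1, Hmgb2 and Hmgb3, by -0.086, -0.053 and -0.042.

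Over the 9 libraries the members' profiles were compared by the root mean square difference of log2 CPM after centring each gene on its mean, so that 0 would be an identical profile. Hmga1 and Hmga1b differed by 0.161, Hmga1b and Hmga2 by 0.330, and Hmga1 and Hmga2 by 0.417. Hmgb1 and Hmgb2 differed by 0.0740, Hmgb1 and Hmgb3 by 0.154, and Hmga2 and Hmgb1 by 0.989. These values describe the same 9 libraries, and genes that barely move resemble each other by that alone.

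Among 8514 genes with a mean of at least 10 CPM, the 4 nearest to Hmga2 were Ccn2 at 0.127, Tnc at 0.149, Inhba at 0.161 and Nipal1 at 0.166, against a median over all genes of 0.990. Ccn2, a secreted matricellular protein and a standard target of YAP, stood at 1070, 3861 and 761 CPM in unfed, fed 3 h and fed 24 h cells. Tnc encodes the matrix protein tenascin C and Inhba a subunit of activin. Nearest to Hmga1 were Klhdc8a at 0.0794, Siglecg at 0.116, Fhdc1 at 0.137 and Rnd1 at 0.141, against a median of 0.643. Nearest to Hmga1b were Fhdc1 at 0.0775, Siglecg at 0.101, Fhl1 at 0.122 and Rnd1 at 0.123, against a median of 0.704, so Siglecg, Fhdc1 and Rnd1 are on both lists.

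The genes nearest to Hmgb1 were Taf11, Cdc25b, Dnajc9 and Slc7a6os, at 0.0346 to 0.0371 against a median of 0.141. For Hmgb2 they were Ranbp10, Adcy6, Pibf1 and Zswim4, at 0.0307 to 0.0376 against a median of 0.161. For Hmgb3 they were Ppp1r18, Morrbid, Gfm1 and E2f6, at 0.0238 to 0.0360 against a median of 0.187. Like Hmgb3, these had their highest mean in fed 3 h cells, for example Ppp1r18 at 157, 197 and 154 CPM and Gfm1 at 59.5, 74.0 and 57.1 CPM in unfed, fed 3 h and fed 24 h cells.

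**Figure D4:**
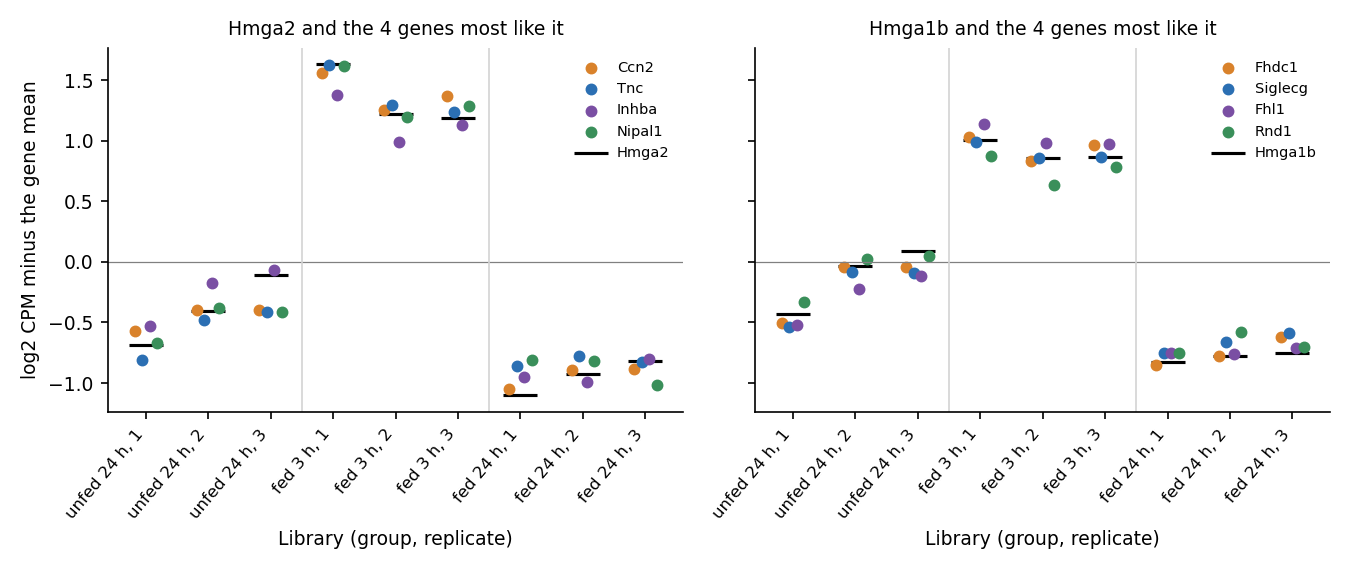
Log2 CPM minus the mean of each gene for Hmga2 (left) and Hmga1b (right) as black dashes, and for the 4 genes most like each as coloured points, across the 9 libraries by group and replicate. Hmga2 lies at -0.69 in unfed replicate 1 and at 1.63 in fed 3 h replicate 1, and Ccn2 at -0.57 and 1.56 in the same libraries.

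Genes around the members were taken from lists of related function, and their p-values are adjusted over all 13568 genes (edgeR quasi-likelihood test). Their counts and medians can be set beside the shares of genes called and the medians of all genes given above. Among 10 tested genes of the LIN28 and let-7 list, 4 rose and 3 fell in fed 3 h against unfed cells, with a median log2 fold change of -0.0029. Dgcr8, the partner of Drosha, rose from 35.0 to 47.2 CPM (log2 fold change 0.43, adjusted p = 2.54e-06). Xpo5, which exports miRNA precursors (0.35, adjusted p = 7.14e-05), and Arid3a (0.78, adjusted p = 4.58e-05) rose too. So did Dicer1, which cuts miRNA precursors and was named after its values were seen (0.17, adjusted p = 0.00704). Those that fell were Dis3l2, which degrades let-7 precursors marked by LIN28 (-0.27, adjusted p = 0.000808), and, at low levels and named after their values were seen, Igf2bp1 (-0.75, adjusted p = 0.00428) and Igf2bp2. Igf2bp2, a known target of HMGA2 protein, went from 3.42 to 1.29 CPM (-1.41, adjusted p = 4.24e-06), opposite in direction to Hmga2, and stood at 3.84 CPM in fed 24 h cells (0.17, adjusted p = 0.403 against unfed). In fed 24 h against unfed cells 0 genes of this list rose and 2 fell, Dicer1 (-0.32, adjusted p = 0.000223) and Xpo5 (-0.37, adjusted p = 0.000189), with a list median of -0.10. Lin28a and Trim71 had 0 counts in every library and Lin28b had 1 count in all.

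Of 20 tested genes with other HMG boxes, 8 rose and 3 fell at 3 h, with a median of 0.11. Lef1, a partner of β-catenin in Wnt signalling, rose from 3.44 to 9.86 CPM (log2 fold change 1.52, adjusted p = 2.82e-07) and was at 2.71 CPM in fed 24 h cells, lower than in fed 3 h cells (-1.86, adjusted p = 1.53e-08). Ubtf, which serves ribosomal RNA transcription, rose (0.29, adjusted p = 0.000116), as did Hmgxb3 (0.29, adjusted p = 0.000140). At the later time 3 rose and 3 fell against unfed cells, with a median of 0.04. Tfam, which packages mitochondrial DNA, fell from 55.9 to 46.7 CPM (-0.26, adjusted p = 0.000678), and Hmg20b rose from 45.3 to 54.6 CPM (0.27, adjusted p = 0.000392).

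The HMGN proteins, which bind nucleosomes and form the remaining branch of the HMG family, moved little. Of 4 tested genes 0 rose and 1 fell at 3 h, Hmgn2 from 73.3 to 63.7 CPM (log2 fold change -0.20, adjusted p = 0.00362), with a median of -0.0031. After 24 h of feeding 1 rose, Hmgn5 (0.35, adjusted p = 0.0231), and the list median was 0.10. The Hmgn5 call was lost on leaving out either unfed replicate 1 or fed 24 h replicate 3. Among 8 linker histones and HP1 proteins, 1 rose and 2 fell at 3 h, with a median of -0.01. Hist1h1c rose (0.46, adjusted p = 0.000425), and H1f0 (-0.28, adjusted p = 6.08e-05) and H1fx (-0.33, adjusted p = 0.00155) fell. At 24 h 2 rose and 2 fell, among them the HP1 gene Cbx5, which fell from 350 to 277 CPM (-0.34, adjusted p = 4.00e-05), with a median of 0.04.

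Receptors and partners of HMGB1 outside the cell included 11 tested genes, of which 4 rose and 4 fell at 3 h, with a median log2 fold change of -0.03. Havcr2, which encodes the receptor TIM-3, rose from 0.873 to 6.38 CPM (2.86, adjusted p = 2.65e-09) and stood at 0.975 CPM in fed 24 h cells. Cxcl12, the chemokine that pairs with HMGB1 at the receptor CXCR4, fell from 5712 to 2275 CPM (-1.33, adjusted p = 1.54e-09). Tlr2, a pattern receptor, fell from 44.9 to 27.2 CPM (-0.72, adjusted p = 1.56e-06), and Cd24a, a brake on danger signals, fell from 310 to 221 CPM (-0.49, adjusted p = 9.77e-08). Cxcr4 itself, named after its values were seen, was at 0.0730 CPM in unfed and 0.591 CPM in fed 3 h cells (3.00, adjusted p = 0.000217). Sdc1, a cell surface proteoglycan, rose (0.22, adjusted p = 0.00116). In fed 24 h against unfed cells 3 rose and 1 fell, with a median of 0.13. Of these Cxcl12 was at 7974 CPM (0.48, adjusted p = 0.000226), and the calls of Ager, Thbd and Xpo1, named after their values were seen, were each lost in some alternatives, that of Xpo1 in 13 of 17. Ager, the gene of the receptor RAGE, was at 0.243 CPM in unfed and 0.554 CPM in fed 24 h cells.

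The SET complex, in which Hmgb2 is a known subunit, had 6 tested genes, of which 4 rose and 0 fell at 3 h, with a median of 0.14. Set itself rose from 251 to 313 CPM (log2 fold change 0.32, adjusted p = 7.86e-05) and Anp32b by 0.19 (adjusted p = 0.00787). The calls of Nme1 (0.17, adjusted p = 0.0120) and, named after its values were seen, Apex1 (0.11, adjusted p = 0.0291) were each lost when unfed libraries were left out, that of Nme1 without unfed replicate 2, and that of Apex1 without unfed replicate 1 or 3 and in other alternatives. By 24 h 0 rose and 3 fell against unfed cells, with a median of -0.24: Set to 212 CPM (-0.24, adjusted p = 0.00224), Nme1 (-0.26, adjusted p = 0.00195) and Apex1 (-0.24, adjusted p = 0.000527).

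Genes of the RB, E2F and senescence list, to which HMGA proteins have been tied through senescent chromatin, numbered 11, of which 3 rose and 4 fell at 3 h, with a median of -0.03. E2f3 (log2 fold change 0.25, adjusted p = 0.000529) and E2f1 (0.17, adjusted p = 0.00248) rose, and Rbl2 (-0.34, adjusted p = 8.01e-05) and the lamin gene Lmnb1 (-0.32, adjusted p = 0.000344) fell. In fed 24 h cells 1 rose against unfed cells, Rbl2 (0.28, adjusted p = 0.00111), and 2 fell, E2f3 (-0.26, adjusted p = 0.00127) and Trp53 (-0.42, adjusted p = 8.86e-06), with a median of -0.0022.

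Cell cycle markers were counted because HMGA and HMGB2 levels are known to follow division. Of 16 tested, 9 rose and 0 fell at 3 h, with a median of 0.18, led by Ccne1 (log2 fold change 0.52, adjusted p = 3.87e-07), Rrm2 (0.33, adjusted p = 3.02e-05) and Cdk1 (0.30, adjusted p = 1.72e-05). At 24 h 0 rose and 7 fell against unfed cells, with a median of -0.12, led by Ccne2 (-0.43, adjusted p = 5.91e-05), Cdc6 (-0.36, adjusted p = 0.00129) and Mcm3 (-0.29, adjusted p = 0.00136). Their summed level was 3434 to 3783 CPM in unfed cells, 3957 to 4040 in fed 3 h cells and 3363 to 3498 in fed 24 h cells. The means of the 3 HMGA rows lie in the same order of groups as the mean of this sum. So do those of Hmgb3, at 19.8, 24.9 and 19.6 CPM in unfed, fed 3 h and fed 24 h cells. The unfed and fed 24 h libraries overlap for the sum and for Hmgb3. Hmgb2 does not follow that order: its mean was highest in fed 24 h cells, at 82.5 CPM, where the mean of the sum was lowest. Nor did every marker follow the sum: Mki67 was at 427, 401 and 470 CPM in unfed, fed 3 h and fed 24 h cells. It was the 1 marker called higher in fed 24 h than in fed 3 h cells, while 12 were called lower. That call was lost without fed 3 h replicate 3 or fed 24 h replicate 3. The part of the cell cycle in the members' values was not tested.

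Between fed 24 h and fed 3 h cells the same lists split as follows. In the LIN28 and let-7 list 3 rose and 4 fell (median log2 fold change -0.07), among other HMG boxes 6 rose and 6 fell (-0.0042), and among HMGN genes 2 rose and 1 fell (0.14). Among linker histones and HP1 proteins 2 rose and 2 fell (0.13), and among HMGB1 receptors and partners 5 rose and 3 fell (0.21). In the SET complex 1 rose and 4 fell (-0.36), in the RB, E2F and senescence list 5 rose and 4 fell (-0.07), and among cell cycle markers 1 rose and 12 fell (-0.30). This comparison shares its libraries with the others, so the splits are not independent of those above.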

How the data were processed

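Read counts per gene, not normalized, were deposited for 9 libraries, and per the submitters' processing notes STAR 2.7.0f and Subread 1.6.4 with featureCounts were used, with builds GRCm38.p6 and GRCh38.p13. Not given in the sources used here are the annotation, the strand setting, the handling of reads with several matches and the roles of the genomes. The labels name different library kits. Counts were fitted with edgeR 4.0.16 (quasi-likelihood F-test, TMM, filterByExpr, group as the only term, all 9 libraries) in R 4.3.3. The SE is the absolute log2 fold change divided by the square root of F. Log2 CPM used a prior count of 2. The members and lists were chosen with earlier results of these data known. All members were named. In each list up to 3 called genes per direction were named, by size of change at a mean of at least 5 CPM, with the exceptions stated, and for each member the 4 genes nearest in profile, leaving out pseudogenes and unnamed clones. The fit was tested on simulated data.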

Additional observations from a re-analysis of the deposited data

How the results depend on the processing

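Each comparison was repeated under 17 alternatives: the DESeq2 1.42.0 Wald test, its size factors in edgeR, no filter, a stricter filter, a replicate block, only the 6 libraries compared, Hmga1 and Hmga1b summed, pseudogene rows summed with their member, and each library left out. All 101 member log2 fold changes from alternatives in each comparison moved by less than the SD within groups, and 0 called differences changed direction. With 3 libraries per group, leaving out 1 can hardly shift a group mean by more than that SD. For those alternatives the measure therefore says little. For Hmga1 at 24 h against unfed cells the alternatives ran from -0.69 to -0.30, beside -0.52 in the main fit. Among differences that were not called, the sign changed in some alternatives for Hmgb3 at 24 h against unfed cells (-0.041 to 0.027) and for Hmgb1 between the fed groups (-0.054 to 0.030). Over all genes, 2159 were lower at 24 h against unfed cells, and leaving out 1 library gave 1426 to 2241, the lowest without fed 24 h replicate 1. Members called stayed at 3 to 4 at 24 h, 3 to 4 at 3 h and 3 to 5 between the fed groups, where Hmgb2 was the fifth. At 3 h and between the fed groups, the 3 arose only where Hmga1 and Hmga1b were summed into a single row. In those comparisons Hmga1, Hmga1b, Hmga2 and Hmgb3 kept their calls in every alternative that held them. Replicates with the same number in different groups did not deviate together (r from -0.163 to 0.0578 over 9 pairs). Pairs with other numbers gave r from -0.0971 to 0.104. A weak shared effect could be missed here, so whether the numbers pair the samples stays unknown. With a replicate block 4 members were called in each comparison, and genes lower at 24 h against unfed cells numbered 2010.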
